A study of Homo sapiens with 36 samples.

Results

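The response of C4-2 prostate cancer (PCa) cells to RAW264.7 cells was read from 4 RNA-sequencing libraries. In 2 of them RANKL and RAW264.7 cells were both added to C4-2 cells, and in the other 2 C4-2 cells had received RANKL alone. They were chosen by their titles, cell line and culture condition from the 36 libraries of the series, and they are compared below as the RAW libraries and the RANKL libraries. C4-2 is an established human line derived from LNCaP, listed by the submitters as osteoblastic PCa (BPCa), and RAW264.7 is a mouse monocyte/macrophage line. RANKL was given at 50 ng/mL in both groups, which differ in the addition of RAW264.7 cells. The sources used here give no level of RANKL during culture, and no library had RAW264.7 cells without RANKL. A change in exposure to RANKL therefore cannot be told apart from other effects of RAW264.7 cells. The 2 kinds of cell grew side by side in horizontally connected wells separated by a porous filter, in αMEM with serum, and RNA was taken from the PCa cells. The study's text gives 5 days for co-culture with MG63 osteoblast-like cells. A separate time for the RNA of the RAW264.7 co-cultures was not given in the sources used here. No label says whether replicates 1 and 2 came from separate cultures, and the p-values therefore measure the spread between libraries, which may be technical.

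RANKL, encoded by TNFSF11, binds the receptor RANK (TNFRSF11A) on monocytic precursors and drives their fusion into bone-resorbing osteoclasts (OCs), while the decoy receptor osteoprotegerin (TNFRSF11B) blocks it. Tumour cells in bone are exposed to factors from OCs and their precursors as well as from osteoblasts (OBs). C4-2 cells retain a transcriptional response to androgen, the hormone that drives prostate luminal genes such as KLK3, which encodes prostate-specific antigen. The comparison asks what the addition of RAW264.7 cells behind a filter, under RANKL, changes in the PCa cells.

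The 4 libraries held 13954536 and 11951062 estimated counts with RAW264.7 cells and 13373083 and 10869447 with RANKL alone. The unit of level below is CPM, the count of a gene after the library total is scaled to 1000000, and 3 counts correspond to 0.215 to 0.276 CPM in these libraries, a bound that covers counting error only. The shares of mitochondrial counts were 11.0% and 10.8% in the RAW libraries against 10.0% and 10.5% in the RANKL libraries. KLK3, a marker of C4-2 identity, was abundant throughout, at 3591 and 3632 CPM against 3918 and 3795 CPM. Markers of macrophages and OCs, of which 25 were in the table, summed to 31.0 and 30.3 CPM in the RAW libraries and to 31.4 and 32.8 CPM in the RANKL libraries. Of these, 18 stayed under 1 CPM in every library of the comparison, and 8 were at 0 in all 4, TYROBP, AIF1, CYBB, C1QA and C1QB among them. CD68, a lysosomal protein that epithelial cells also make, gave 14.3 and 13.6 CPM against 14.1 and 15.1 CPM. RAW264.7 is a mouse line and the counts are of human transcripts, so these markers cannot decide whether RAW264.7 RNA was present.

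Few genes differed beyond the replicate spread. Of 11525 genes tested by edgeR's quasi-likelihood test in one fit of the 16 libraries that had received RANKL, 0 were higher with RAW264.7 cells at a Benjamini-Hochberg adjusted p under 0.05, and 2 were lower (0.0174%), the linker histone gene H1-2 and RBM42. Without adjustment, 379 genes were higher (3.29%) and 383 lower (3.32%) at p under 0.05, and DESeq2 called 4 genes higher and 13 lower. The median log2 fold change over all genes was 0.00, and the median absolute value was 0.08 beside a median standard error of 0.11. The plot of fold change against level shows the whole comparison.

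**Figure D1:**
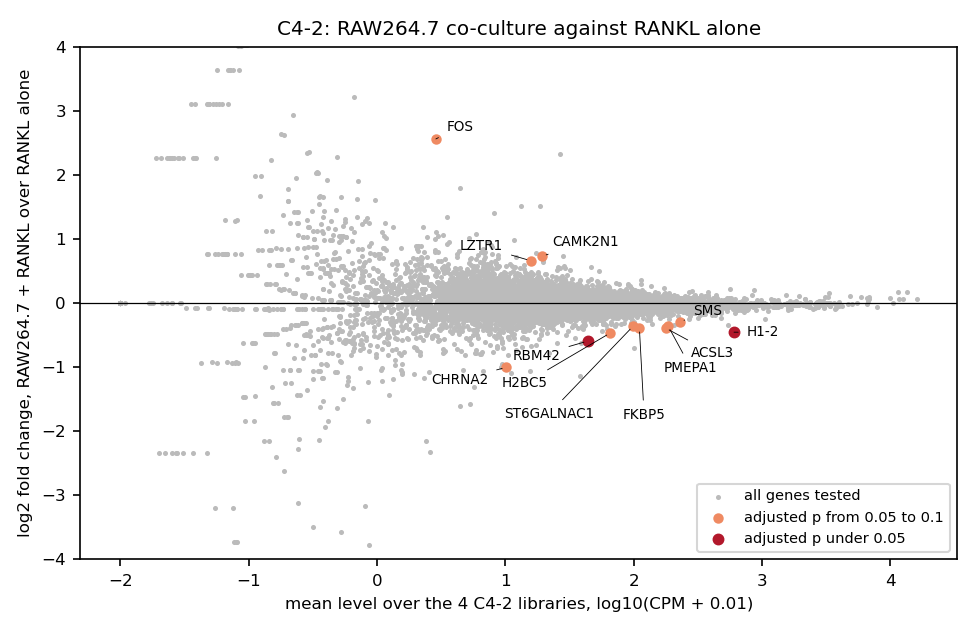
Log2 fold change of RAW264.7 with RANKL over RANKL alone in C4-2 cells (vertical axis) against the mean level over the 4 libraries, as log10(CPM + 0.01) (horizontal axis), 1 point per gene, with 40 genes of very low counts outside the vertical range. Most abundant genes lie close to 0, and the labelled genes are the 12 at an adjusted p under 0.1, of which H1-2 and RBM42 are under 0.05.

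H1-2 encodes a linker histone, one of the proteins that bind the DNA entering and leaving the nucleosome. It was at 523 and 499 CPM in the RAW libraries and at 693 and 706 CPM in the RANKL libraries. The groups were far apart compared with the distance between replicates, and H1-2 fell by 27.1%, a log2 fold change of -0.46 (SE 0.06, edgeR adjusted p = 0.022). In C4-2 cells cultured without RANKL or a partner it was at 428, 428 and 444 CPM, so that the RAW libraries lay between the plain mono-culture and RANKL alone. The 3 plain mono-culture libraries stood apart in depth, at 27738951 to 33582290 counts against 10869447 to 15397563 in the other C4-2 libraries, and in the share of ribosomal protein genes, at 16.4% to 16.8% against 17.7% to 18.7%. The part of this in levels set beside them, and in effects measured against them, was not tested.

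RBM42, an RNA-binding protein, was at 37.2 and 32.9 CPM with RAW264.7 cells and at 54.7 and 51.2 CPM with RANKL alone. It fell by 33.7%, a log2 fold change of -0.59 (SE 0.09, edgeR adjusted p = 0.048). In plain mono-culture it was at 39.3, 39.8 and 37.3 CPM, close to the RAW libraries and below both RANKL libraries. RBM42 was summed from 7 transcripts, and the most abundant of them was at 29.1 and 20.6 CPM against 32.4 and 30.7 CPM. The second, at 1.48 and 9.75 CPM against 20.2 and 11.8 CPM, carried much of the change, and the division of counts between transcripts of 1 gene is an estimate. With any 1 of the 4 C4-2 libraries left out, neither H1-2 nor RBM42 was called, although their log2 fold changes stayed between -0.48 and -0.43 and between -0.69 and -0.51. With the variance estimated from the 4 C4-2 libraries alone, H1-2 had an edgeR adjusted p of 0.096 and no gene was called. In the fit of all 36 libraries neither was called, with edgeR adjusted p of 0.14 for H1-2 and 0.43 for RBM42.

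A wider threshold, an adjusted p under 0.1 chosen after the values were seen, adds 3 genes that were higher (0.026%) and brings the lower genes to 9 (0.0781%). CAMK2N1, an inhibitor of the calcium/calmodulin-dependent kinase CaMKII, was at 23.9 and 24.7 CPM against 16.6 and 12.3 CPM (log2 fold change 0.73, SE 0.11, edgeR adjusted p = 0.051). FOS, a subunit of the AP-1 transcription factor and an immediate early gene, was low but more separated. The 2 RAW libraries also differed from each other. FOS had 93 and 37 counts in the RAW libraries and 10 in each RANKL library, or 6.67 and 3.11 CPM against 0.770 and 0.911 CPM (log2 fold change 2.56, SE 0.42, edgeR adjusted p = 0.059). LZTR1, an adaptor that brings RAS-family GTPases to a ubiquitin ligase, was at 18.4 and 20.3 CPM against 11.6 and 12.9 CPM (log2 fold change 0.66, edgeR adjusted p = 0.061).

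On the lower side, CHRNA2, a nicotinic acetylcholine receptor subunit, was at 6.10 and 7.43 CPM against 12.5 and 14.6 CPM (0.499 times the RANKL level in the fit, edgeR adjusted p = 0.051). SMS, which makes spermine from spermidine, was at 209 and 205 CPM against 254 and 253 CPM (log2 fold change -0.29, edgeR adjusted p = 0.057). H2BC5, a core histone gene, had 56.1 and 54.2 CPM against 72.5 and 80.2 CPM (log2 fold change -0.47, edgeR adjusted p = 0.062). The replicates of each of these 3 genes lay closer to each other than to the other group. The remaining 4 were ACSL3, a long-chain acyl-CoA synthetase, ST6GALNAC1, a sialyltransferase, and the androgen-regulated genes PMEPA1 and FKBP5, with log2 fold changes between -0.39 and -0.36 and edgeR adjusted p between 0.062 and 0.078.

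C4-2B, the bone-derived subline of C4-2, was cultured under the same conditions. Its levels did not enter the fold changes in C4-2, but its replicate spread did enter the estimate of variance behind their p-values. Of the 12, 11 moved the same way in C4-2B at an unadjusted p under 0.05, where 2.92% of all genes were higher and 3.46% lower. In that line 7 of them passed an adjusted p of 0.05, out of 8 genes higher (0.0694%) and 8 lower (0.0694%). FOS rose there from 0.390 and 0.503 CPM to 8.57 and 6.45 CPM (log2 fold change 4.09, edgeR adjusted p = 0.0037), and H1-2 fell from 856 and 898 CPM to 639 and 643 CPM (log2 fold change -0.44, edgeR adjusted p = 0.0045). CAMK2N1 (0.69), CHRNA2 (-1.10), SMS (-0.37), ACSL3 (-0.51) and FKBP5 (-0.50) were the others, given as log2 fold changes in C4-2B. LZTR1 was the exception, at 14.5 and 12.4 CPM with RAW264.7 cells and 13.3 and 15.2 CPM without (log2 fold change -0.06). The 16 genes called in C4-2B, of which 7 are among the 12 and were counted above, all had the same sign in C4-2. Of the 16, 13 had an unadjusted p under 0.05 in C4-2. Over all genes 49.7% were positive and 49.8% negative in C4-2, and 3323 of 11525 were negative in both lines. In C4-2B itself 49.6% of all genes were positive and 50.1% negative. Whether the cultures of the 2 lines shared a preparation of RAW264.7 cells was not given in the sources used here.

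**Figure D2:**
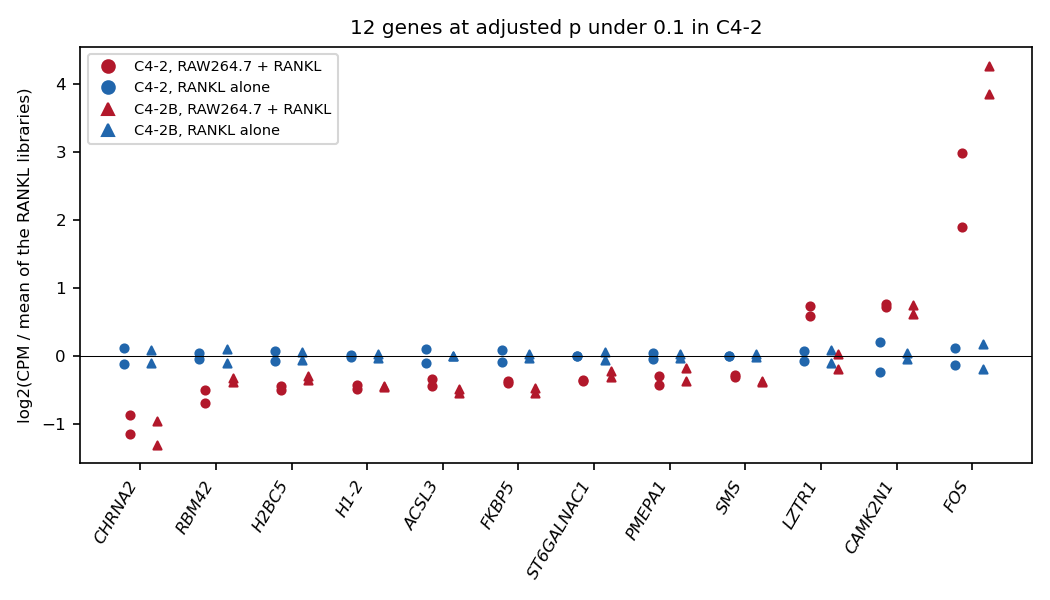
Level of each of the 12 genes in every library of C4-2 (circles) and C4-2B (triangles), as log2 of CPM over the mean of the RANKL libraries of the same line, red for RAW264.7 with RANKL and blue for RANKL alone. In C4-2 the red and blue points do not overlap for any of the 12, which were chosen on these values, and in C4-2B they overlap for LZTR1 only.

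Genes that respond to androgen were lower as a group. Of 26 listed, 21 were tested, and 10 of these were lower at an unadjusted p under 0.05 and 0 higher, beside 3.32% and 3.29% of all genes. None was called at an adjusted p under 0.05. The count of lower members was 6 without RANKL replicate 1 and 7 to 9 without any other of the 4 libraries. The fold change was negative for 18 of the 21, beside 49.8% of all genes, and in 14 both RAW libraries lay below both RANKL libraries, against 17.3% of all genes. The median log2 fold change was -0.23, and -0.16 over the 18 members with 1 CPM or more in the RANKL libraries. The summed level of the list was 7332 and 7350 CPM in the RAW libraries and 8039 and 7919 CPM in the RANKL libraries, with KLK3 as the most abundant member.

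FKBP5, a co-chaperone of HSP90 that is strongly induced by androgen, was at 96.9 and 95.0 CPM against 118 and 133 CPM (log2 fold change -0.39, SE 0.07, edgeR adjusted p = 0.078). PMEPA1, a membrane protein that restrains TGF-β signalling, was at 170 and 155 CPM against 202 and 216 CPM (log2 fold change -0.36, edgeR adjusted p = 0.078). SLC45A3, the membrane protein prostein, had 54.8 and 56.5 CPM against 74.3 and 78.4 CPM (log2 fold change -0.46, edgeR adjusted p = 0.49). ELL2, a subunit of the elongation complex of RNA polymerase II, had 56.4 and 51.1 CPM against 77.1 and 65.3 CPM (log2 fold change -0.41, edgeR adjusted p = 0.32). In all 4 genes both RAW libraries lay below both RANKL libraries.

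Other members at an unadjusted p under 0.05 included CENPN, NDRG1, ZBTB16, KLK2 and HPGD, the last at under 1 CPM. The kallikrein KLK2 was at 662 and 720 CPM against 777 and 752 CPM, a log2 fold change of -0.15. KLK3 itself had a log2 fold change of -0.10 (SE 0.07, edgeR adjusted p = 0.89), and TMPRSS2, a serine protease, of -0.12. The list was uneven, with larger differences in FKBP5, PMEPA1, SLC45A3 and ELL2 than in the abundant kallikreins.

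The same list had a median log2 fold change of -0.21 in C4-2B, where 9 of 21 members were lower and 0 higher at an unadjusted p under 0.05, and 8 members were lower at that threshold in both lines, as were 99 of all 11525 genes. In DU145, an osteolytic PCa (LPCa) line that does not respond to androgen, the median was -0.02 with 1 member lower and 0 higher, beside 3.34% and 3.05% of all genes. In 22Rv1, another LPCa line, it was 0.02 with 0 lower and 2 higher, beside 2.85% and 3.42%. In C4-2 cells co-cultured with MG63, compared with mono-culture in libraries that are separate from these 4, the median was -0.22 beside -0.05 for all genes. There 12 of 21 members were lower and 2 higher at an unadjusted p under 0.05, beside 18.6% and 10.2% of all genes. FKBP5 had 163, 164 and 169 CPM in plain mono-culture and 104 and 107 CPM with MG63, both on the same scale as the values above.

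Histone genes were also lower as a group. The group was assembled after H1-2 and H2BC5 had been seen, from all symbols of the H1, H2A, H2B, H3 and H4 gene families, and its counts are a description. Most of its members lie in clusters, are transcribed during S phase and yield mRNAs that end in a stem-loop in place of a poly(A) tail, and the libraries were made by poly(A) selection. Of 48 genes 26 were tested, and 11 were lower and 0 higher at an unadjusted p under 0.05, beside 3.32% and 3.29% of all genes. In 18 both RAW libraries lay below both RANKL libraries, beside 17.3% of all genes. The count of lower members was 6 without RAW replicate 2, 7 without RANKL replicate 2 and 8 and 10 without the others. The median log2 fold change was -0.33, and the summed level was 1507 and 1418 CPM against 1801 and 1823 CPM.

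The 11 lower genes came from the H1, H2A, H2B and H3 families, and no H4 gene was among them. H2BC8 was at 12.3 and 8.47 CPM against 17.9 and 15.6 CPM (log2 fold change -0.69, edgeR adjusted p = 0.35). H2AC6 was at 68.1 and 59.8 CPM against 77.6 and 83.7 CPM (log2 fold change -0.33, edgeR adjusted p = 0.39), and H2BC4 at 35.1 and 33.8 CPM against 43.7 and 47.2 CPM (log2 fold change -0.40, edgeR adjusted p = 0.40). H3C10 had 63.9 and 55.2 CPM against 74.2 and 75.4 CPM. H1-10, a linker histone gene outside the clusters, had a log2 fold change of -0.07. H4C14 and H4C15 held identical values in every library, and the reason was not tested.

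The list of DNA replication genes, which are also used in S phase, was not lower. It had 1 of 31 members higher and 0 lower at an unadjusted p under 0.05, beside 3.29% and 3.32% of all genes, and a median of 0.04. Of its members 27 were positive, beside 49.7% of all genes. In C4-2B the histone genes had a median of -0.25 with 10 lower and 0 higher, beside 3.46% and 2.92% of all genes, and 9 members were lower at that threshold in both lines, as were 99 of all 11525 genes. In DU145 the median was -0.13 with 5 lower and 1 higher, beside 3.34% and 3.05% of all genes, in 22Rv1 it was 0.07, and in C4-2 with MG63 it was 0.03, with 4 members higher and 3 lower at an unadjusted p under 0.05 beside 10.2% and 18.6% of all genes. H1-2 in particular rose with MG63 (log2 fold change 0.45, edgeR adjusted p = 0.0010), where 5.64% of all genes were called higher and 9.61% lower, and the difference between that effect and the RAW264.7 effect was itself called (edgeR adjusted p = 2.1e-04 in the fit of all 36 libraries, where the RAW264.7 effect alone had 0.14). RNA quality values were not used here, and the part of poly(A) selection in these levels was not tested.

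**Figure D3:**
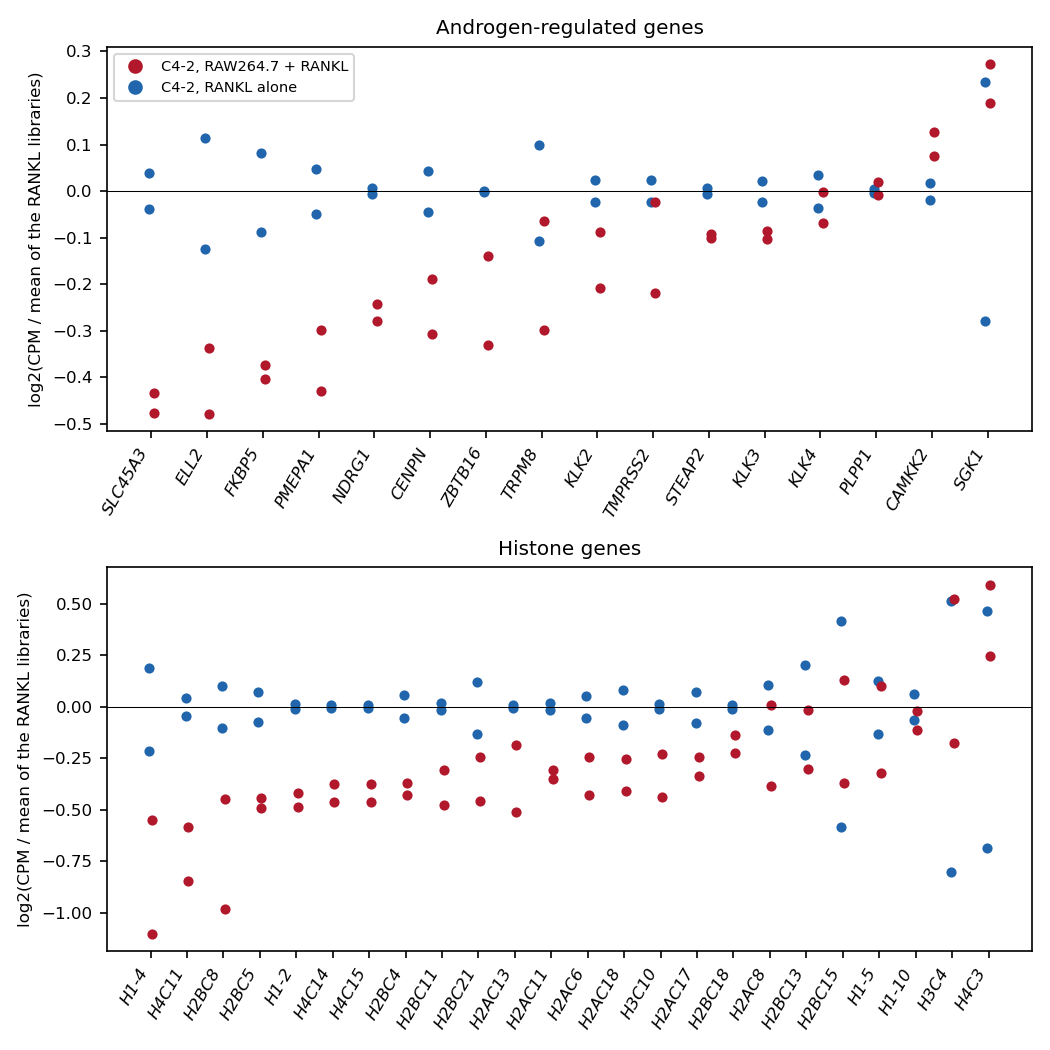
Level of each androgen-regulated gene (top, 16 genes) and histone gene (bottom, 24 genes) reported by name, with at least 1 CPM in the RANKL libraries, as log2 of CPM over the mean of the 2 RANKL libraries of C4-2, red for the RAW libraries and blue for the RANKL libraries, 1 point per library. Most red points lie below the blue ones, and SGK1, CAMKK2, H3C4 and H4C3 are among the few genes where they do not.

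The sequences before the start sites of H1-2 and H2BC5, the 2 histone genes with the lowest p, are shown with that of FOS, the gene with the largest fold change among the 12, because each carries short elements well known from its gene class. They come from RefSeq (GRCh38.p14), cover the 150 bases before the annotated start, and are written 5′ to 3′ on the strand of the gene. H1-2 is at chr6:26056471-26056620 on the minus strand, and the capitals mark the H1 box (AAACACA), then the box bound by the factor NF-Y (CCAAT), then a TATA-like element present as 2 overlapping matches of TATATA.
H1-2: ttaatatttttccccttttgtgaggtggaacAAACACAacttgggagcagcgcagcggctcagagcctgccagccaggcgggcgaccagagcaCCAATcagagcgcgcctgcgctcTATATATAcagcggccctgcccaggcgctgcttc
H2BC5 is at chr6:26157971-26158120 on the plus strand, and the capitals mark 3 matches of CCAAT on either strand and, nearest the start site, the TATA box (TATAAA).
H2BC5: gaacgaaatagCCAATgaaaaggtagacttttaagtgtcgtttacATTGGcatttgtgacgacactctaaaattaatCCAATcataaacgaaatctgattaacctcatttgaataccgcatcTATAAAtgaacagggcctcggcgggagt
FOS is at chr14:75278678-75278827 on the plus strand, and the capitals mark the core of a cyclic AMP response element (TGACGT) and, nearest the start site, the TATA box.
FOS: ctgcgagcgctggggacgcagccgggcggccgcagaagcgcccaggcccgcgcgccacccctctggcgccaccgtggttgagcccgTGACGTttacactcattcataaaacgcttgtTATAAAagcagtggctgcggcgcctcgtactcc

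These letters were searched on both strands in the 250 bases before each start site. CCAAT was in 20 of the 24 histone genes with a promoter entry and TATAAA in 18, whereas of all 35116 promoter windows 32.0% held CCAAT and 10.7% TATAAA. Counted by window, the shares in the histone genes were 84.6% and 73.1% of 26. The H1 box was in 11.5% of the 26 histone windows and in 4.82% of all windows. The element TGACGT was in 7.1% of all windows, and TATATA, which can overlap the TATA box, in 3.73%. AGAACA, the half-site of steroid receptor elements, was in 4 of the 14 androgen-regulated genes with an entry (14.3% of their 28 windows), in 23.1% of the 26 histone windows and in 12.4% of all windows. A match is a description of the sequence and was not tested against the fold changes.

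RANK, RANKL and osteoprotegerin mRNAs were scarce in C4-2 cells. TNFRSF11A was at 1.86 and 1.56 CPM in the RAW libraries and at 1.54 and 1.31 CPM in the RANKL libraries, overlapping in range with 1.73, 2.08 and 1.53 CPM in plain mono-culture. TNFSF11 was at 0 and 0.0901 CPM against 0 in both RANKL libraries, and TNFRSF11B at 0 in both RAW libraries against 0.115 and 0.133 CPM, all below the level of 3 counts. Of this list 4 of 10 genes were tested, and LGR4, a receptor that also binds RANKL, was the single member lower at an unadjusted p under 0.05, beside 3.32% of all genes, at 13.2 CPM in both RAW libraries against 19.8 and 15.1 CPM (log2 fold change -0.41, edgeR adjusted p = 0.62).

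Targets of NF-κB, the pathway that RANK and inflammatory cytokines activate, had 0 of 18 members higher and 2 lower at an unadjusted p under 0.05 (11.1%, beside 3.32% of all genes), with a median of 0.03. These were NFKBIA, the inhibitor that NF-κB induces, at 126 and 105 CPM against 141 and 136 CPM (log2 fold change -0.26), and CFLAR, an inhibitor of caspase 8 activation (-0.19). JAK-STAT3 genes gave 1 higher, BCL6, and 1 lower, SOCS2, of 13, beside 3.29% and 3.32% of all genes. Interferon-stimulated genes gave 0 in either direction of 19, and chemokines and cytokines 1 of 12, IL18, at 0.109 and 0.463 CPM against 0 in both RANKL libraries. TGF-β response genes gave BAMBI, a decoy receptor, as higher at 69.6 and 67.7 CPM against 58.1 and 56.5 CPM (log2 fold change 0.26, edgeR adjusted p = 0.48), and PMEPA1 and ID4 as lower. No gene of these lists was called.

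Of 22 immediate early genes, FOS and the phosphatase gene DUSP1 were higher at an unadjusted p under 0.05, and SPRY4, an inhibitor of receptor tyrosine kinase signalling, was lower, beside 3.29% and 3.32% of all genes. DUSP1 was at 19.2 and 15.7 CPM against 14.6 and 14.1 CPM (log2 fold change 0.28, edgeR adjusted p = 0.74). The median of the list was 0.08, so that the size of the FOS difference was not shared by the list. FOS had 0.255, 0.632 and 0.639 CPM in plain mono-culture and 2.26 and 1.33 CPM with MG63, and its log2 fold changes in DU145 and 22Rv1 were 0.87 and 0.63.

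SERPINA3, a secreted serpin, and LCN2, the iron-siderophore carrier lipocalin 2, are the genes the study followed in osteoblast co-culture. SERPINA3 was at 0.843 and 1.26 CPM with RAW264.7 cells and at 1.17 and 0.354 CPM with RANKL alone, or 12 and 15 counts against 16 and 4. LCN2 was at 0.127 and 0.217 CPM against 0.253 and 0 CPM, or 2 and 3 counts against 3 and 0. The groups overlapped for both genes. Both were under the count minimum, and in the fit without it the log2 fold changes were 0.40 (SE 0.92) and 0.63 (SE 1.27), each with an edgeR adjusted p of 1. Two-sided exact permutation tests on log2(CPM + 1) gave p = 0.67 for SERPINA3 and p = 1 for LCN2, in a design of 2 against 2 that cannot go below 0.33. In C4-2 cells with MG63 the same genes were at 142 and 102 CPM and at 27.8 and 26.2 CPM. The signs reversed to log2 fold changes of -0.18 and -0.20 without RANKL replicate 2, so no direction can be read from these 4 libraries.

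Of the metabolic lists, cholesterol synthesis and uptake had 4 of 24 members lower at an unadjusted p under 0.05 (16.7%, beside 3.32% of all genes) and 1 higher (4.17%, beside 3.29%). Of its members 19 were negative, beside 49.8% of all genes, and the median was -0.08. In 9 both RAW libraries lay below both RANKL libraries (37.5%, beside 17.3% of all genes). In C4-2B 5 of 24 were lower and 1 higher with a median of -0.12, and in DU145 21 were lower and 0 higher with a median of -0.30, beside 3.46% and 3.34% of all genes lower. In 22Rv1 0 were lower and 0 higher, beside 2.85% and 3.42% of all genes, with a median of -0.04. FDFT1, the squalene synthase, was at 302 and 316 CPM against 336 and 369 CPM (log2 fold change -0.19, edgeR adjusted p = 0.70). In fatty acid synthesis, ELOVL5, an elongase of polyunsaturated fatty acids, was at 519 and 442 CPM against 575 and 647 CPM (log2 fold change -0.35, edgeR adjusted p = 0.17) and at -0.35 in C4-2B as well. ELOVL6 was at 9.53 and 15.7 CPM against 8.38 and 9.78 CPM (log2 fold change 0.46, edgeR adjusted p = 0.70), with overlapping groups and a log2 fold change of 0.076 without RAW replicate 2. The median of the 14 members was -0.03. Glycolysis enzymes had 2 of 19 higher, PFKP and ENO2, and 2 lower, HK1 and ALDOC (10.5% each way, beside 3.29% and 3.32% of all genes). The 13 genes encoded by mitochondrial DNA had a median of 0.08 and 12 positive values, beside 49.7% of all genes. In 9 of them both RAW libraries lay above both RANKL libraries, beside 18.8% of all genes, and 2, MT-ATP6 and MT-ND6, were higher at an unadjusted p under 0.05. The mitochondrial shares given above, higher in both RAW libraries, are the sums of these same 13 genes and not a separate measurement.

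Of 30 proliferation and mitosis genes 25 were positive, beside 49.7% of all genes. Their median was 0.06, beside a median standard error of 0.11 over all genes. At an unadjusted p under 0.05, 2 were higher (BUB1B and KIF20A) and 0 lower, where 3.29% and 3.32% of all genes were. BUB1B, a spindle checkpoint kinase, was at 62.0 and 62.6 CPM against 56.3 and 51.7 CPM, a log2 fold change of 0.20. No gene of the list was called.

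Among growth factor receptors, IGF1R was the member with the lowest p, at 7.43 and 4.85 CPM against 12.6 and 12.3 CPM (log2 fold change -1.01, SE 0.25, edgeR adjusted p = 0.36). It had a log2 fold change of -0.01 in C4-2B. Of the genes that act on OBs, TGFB2 was at 1.18 and 0.910 CPM against 1.87 and 2.22 CPM (log2 fold change -0.96, edgeR adjusted p = 0.48), and PLAU, the urokinase gene, was at 0 in both RAW libraries and at 0.491 and 0.973 CPM in the RANKL libraries. Of 18 bone matrix genes 1 passed the count minimum.

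At a fold over 2 and an unadjusted p under 0.05, 43 genes were higher (0.373%) and 43 lower (0.373%). These counts were 4 and 7 with the C4-2 libraries fitted alone and 188 and 192 without a count minimum, and 66 genes were higher without RAW replicate 1. Of these 86, 72 stayed under 5 CPM in all 4 libraries, and 22 had 0 counts in both libraries of 1 group. Their adjusted p ran from 0.051 to 0.75, and 37 had the same sign in C4-2B, 5 of them at an unadjusted p under 0.05. Above 5 CPM, ZFP62, a zinc finger gene named here after its values were seen, was at 27.6 and 27.5 CPM against 8.58 and 10.8 CPM in C4-2 (log2 fold change 1.51, edgeR adjusted p = 0.13) but at -0.15 in C4-2B.

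Differences between cell lines were tested on the effects themselves. Between C4-2 and C4-2B, 0 genes differed at an adjusted p under 0.05 by edgeR, with 412 (3.57%) at an unadjusted p under 0.05 and 3 by DESeq2. The 5 with the lowest p were CTAG2, DBNDD2, ZSCAN5A, ACTB and SMIM11A (edgeR adjusted p = 0.43 for CTAG2 and 0.78 for the others), and the first 2 of these were under 2 CPM in C4-2. Between C4-2 and the mean of the LPCa lines DU145 and 22Rv1, 1 gene differed (0.00868%), beside 5 at an adjusted p under 0.1 (0.0434%) and 683 at an unadjusted p under 0.05 (5.93%). It was XAB2, not called in the fit of all 36 libraries, which was at 41.6 ± 2.71 CPM (SD, n = 2) against 42.7 ± 0.686 CPM in C4-2. RBM42 (difference -0.67), SMS (-0.37), CHRNA2 (-3.63) and PMEPA1 (-0.49) followed with edgeR adjusted p of 0.085, 0.085, 0.085 and 0.095. For CHRNA2 most of the difference came from DU145, where it was at 0.351 and 0.458 CPM against 0 in both RANKL libraries.

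**Figure D4:**
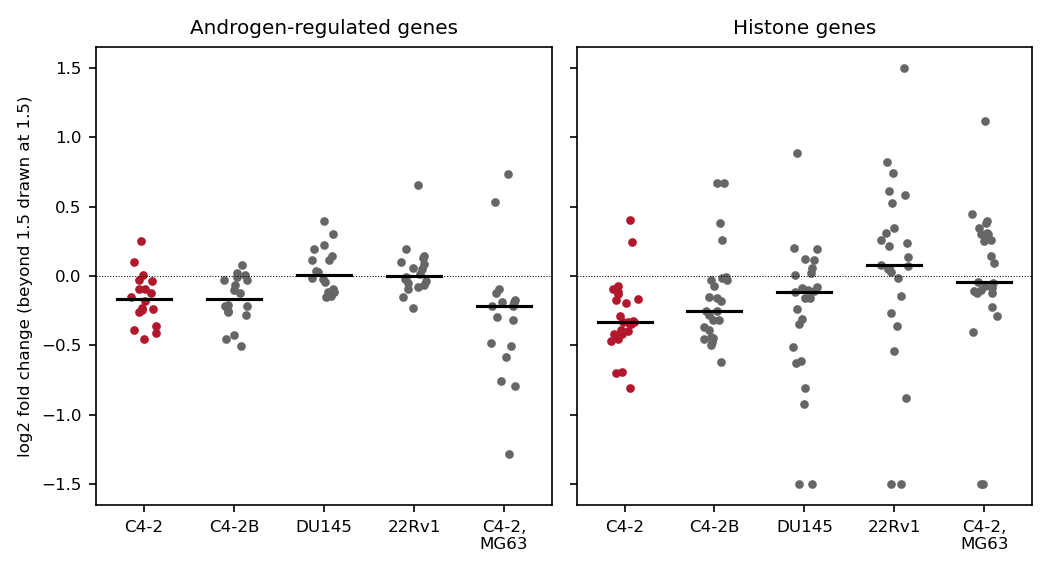
Log2 fold change of each androgen-regulated gene (left) and histone gene (right) with RAW264.7 cells in C4-2, C4-2B, DU145 and 22Rv1, each against RANKL alone, and with MG63 in C4-2 against mono-culture, 1 point per gene with at least 1 CPM in C4-2 and a bar at the median. The medians of the plotted androgen-regulated genes are -0.16, -0.17, 0.01, 0.00 and -0.22 in that order, and those of the histone genes -0.33, -0.25, -0.11, 0.08 and -0.04.

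Seen over the lists, the androgen-regulated and histone genes stood lowest. Besides these, the medians of the lists with at least 10 members tested ran in C4-2 from -0.10 for the C4-2 identity genes, which share members with the androgen list, to 0.11 for chemokines and cytokines. The plot of list medians shows these beside the C4-2B values.

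**Figure D5:**
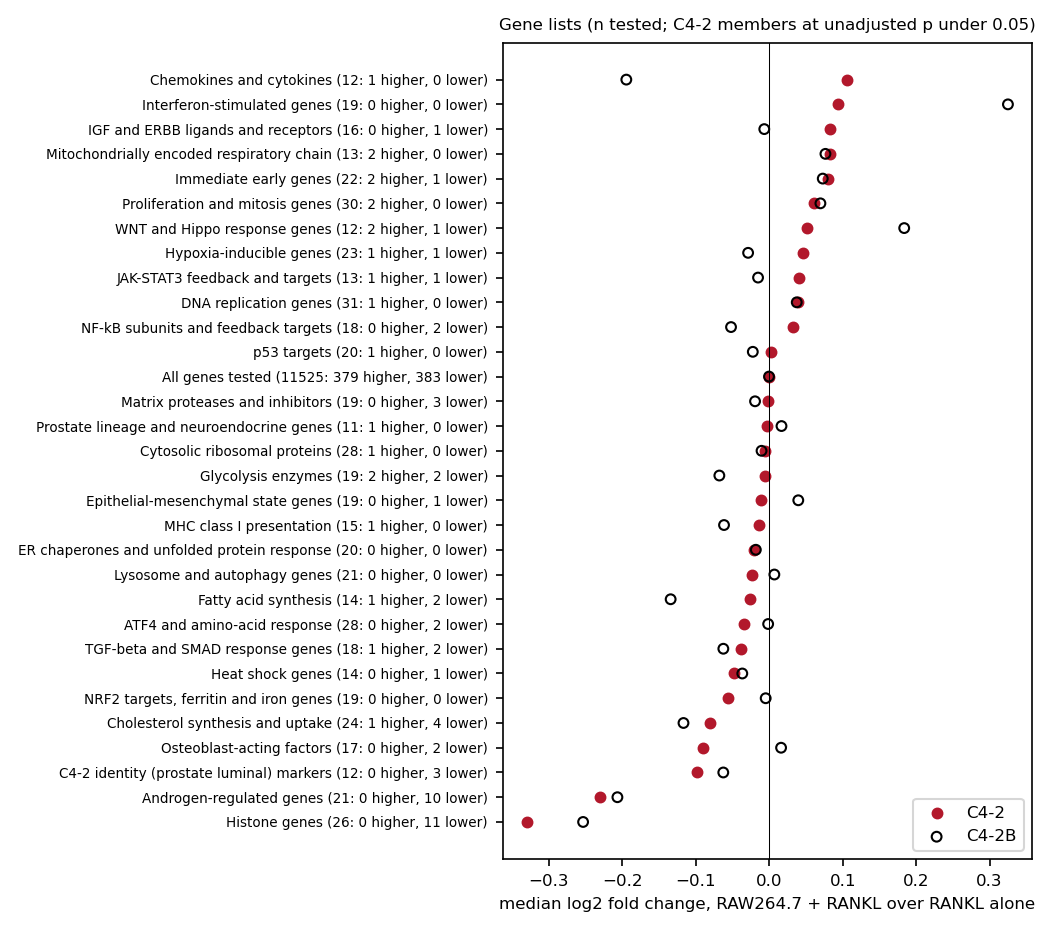
Median log2 fold change of each gene list with 10 or more members tested, RAW264.7 with RANKL over RANKL alone, in C4-2 (filled) and C4-2B (open), with the number tested and the C4-2 members higher and lower at an unadjusted p under 0.05 in the row label. Androgen-regulated genes (-0.23) and histone genes (-0.33) are the 2 lowest rows in C4-2, and the median of all genes is 0.00.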

How the data were processed

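RNA was poly(A)-selected and sequenced from strand-specific libraries on a DNBSEQ-G400 instrument. The authors deposited 1 table of estimated counts per transcript, made with kallisto, with FastQC and hg19 also named in the submitters' processing notes, and the values are not normalized. The table held 161149 lines, of which 2491 belonged to transcripts listed more than once with identical values. The 1312 repeat lines were dropped. Estimated counts were summed by gene symbol over 159837 transcripts into 27852 genes and rounded, and transcripts without a symbol (0.66% to 0.69% of counts in the C4-2 libraries compared) stayed in the library totals only. All 36 columns were matched to samples by name.

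Genes reaching 100 counts in any of the 16 RANKL libraries were tested by edgeR 4.0.16 (R 4.3.3) with TMM scaling, 1 mean per cell line and culture, and 8 residual degrees of freedom, with Benjamini-Hochberg adjustment over 11525 genes. A gene was called at an adjusted p under 0.05. The common biological coefficient of variation was 6.04%. Differences of effects were contrasts in the same fit. The MG63 effect came from a fit of all 36 libraries without a count minimum, with p-values adjusted over the same 11525 genes. DESeq2 1.42.0 served as an alternative. The fit was tested on simulated data. Named were all called genes (up to 12 a direction), members of the lists among the 4 with the lowest p or at an unadjusted p under 0.05, a fixed set (SERPINA3, LCN2, TNFRSF11A, TNFSF11, TNFRSF11B and KLK3) and the 5 genes with the lowest p in each difference, besides those said to be chosen after their values were seen and levels quoted as markers. The 37 gene lists and their members were chosen with earlier results of these data known, and the histone genes were added as a further list after their values were seen. Replicates within a group differed by more than sampling noise, with a mean chi-square per degree of freedom of 3.72 and 3.63. Replicate numbers were not used as pairs. A few genes of the lists are counted but not reported here by name. Alternatives were another scaling, count minimum, set of libraries, tool, replicate block and leaving out single libraries. Gene symbols were taken from the table, and promoter sequences from RefSeq (GRCh38.p14), which is not the build of the table.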

Additional observations from a re-analysis of the deposited data

Results flagged for a closer look

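XAB2, a factor of transcription-coupled DNA repair, had a RAW264.7 effect that differed between C4-2 and the mean of DU145 and 22Rv1 by 1.39 on the log2 scale (SE 0.11, edgeR adjusted p = 4.4e-05). In the fit of all 36 libraries 0 genes were called for this difference, so that XAB2 was not called there. It was at 4.16 and 4.36 CPM in DU145 with RAW264.7 cells against 32.0 and 32.9 CPM with RANKL alone, while its log2 fold changes in C4-2 and 22Rv1 were -0.03 and 0.08. In DU145 mono-culture without RANKL it was at 28.7, 2.89 and 3.03 CPM, so that replicates of 1 group also spanned this range.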

How the results depend on the processing

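Of 985 alternative values for 77 tested genes (the called genes, leading members of the lists and those named for a difference between lines), 939 kept their direction and their side of the threshold, 28 passed it, 16 lost it and 2 reversed. Most of the 77 were not called to begin with. Only H1-2 and RBM42 were called in the main fit and could lose the threshold. H1-2 kept its call in 6 of 13 alternatives and RBM42 in 4 of 13. Without 1 library the log2 fold change of XAB2 ran from -0.099 to 0.027 and that of SLPI, in the acute-phase list, from -0.037 to 0.24. Genes called higher and lower numbered 0 and 2. They were 3 and 9 at an adjusted p under 0.1 (chosen after seeing the data), 2 and 4 with library totals only, 5 and 8 without a count minimum, 0 and 1 with at least 10 counts, 0 and 0 with only the C4-2 libraries, 2 and 1 with all 36 libraries and 4 and 13 with DESeq2. With a replicate block they were 1 and 1, and with a replicate block within each cell line 0 and 0. The replicate numbers did not pair the C4-2 libraries (correlation of replicate differences across genes -0.01). Leaving out 1 C4-2 library gave 0 to 2 higher and 0 to 1 lower. Genes over 2-fold numbered 188 higher and 192 lower without a count minimum, 117 and 124 with at least 10 counts and 4 and 7 with only the C4-2 libraries, and 41 to 66 higher without 1 library. The difference from C4-2B had 3 genes with DESeq2 and 0 to 1 without 1 library. The difference from DU145 and 22Rv1 had 5 genes at an adjusted p under 0.1, 0 with all 36 libraries, 11 with DESeq2 and 1 to 2 without 1 library. Androgen-regulated genes lower at an unadjusted p under 0.05 numbered 6 to 9 without 1 library, fewest without RANKL replicate 1, and histone genes 6 to 10, fewest without RAW replicate 2. SERPINA3 and LCN2, which were not among these 77, also reversed. SERPINA3 had log2 fold changes of -0.18 to 1.49, and LCN2 of -0.20 to 4.35, when single libraries were left out. The causes were not tested. With 2 libraries per group at 10869447 to 13954536 counts, a gene at 0 may lie anywhere up to 0.215 to 0.276 CPM.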
